A study of Homo sapiens with 9 samples.

Results

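Histone lysine methyltransferases and demethylases, the enzymes that place and remove methyl groups on lysines of histones, were followed in MDA-MB-231 cells treated with a SIN3 decoy peptide. Their genes were taken by symbol (the KDM, KMT2 to KMT5, SETD, SETDB, SUV39H, EZH, EHMT, NSD and SMYD families, PRDM2, PRDM9 and DOT1L). No measured value enters this rule, but earlier results of these data were known when genes and rules were chosen. The rule gave 54 genes on 59 probes, of 18417 genes on 19460 probes that are paired with a single gene symbol. Some of the 54, such as SETD6 and SETD9, are described below with another target or a little known role. A gene with more than 1 probe was read from its brightest probe by the mean of all arrays. KDM5D is included in the counts, and its level is not shown.

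MDA-MB-231 is an established human triple negative breast cancer line. Sub-confluent cultures received 2.5 μM SID peptide, which mimics the SIN3 interaction domain (SID group), or a scrambled control peptide (SCR group, for which the labels state no dose), or were left untreated (UT group), each for 24 hours by the labels. The study's other materials give SCR replicate 3 a longer time. Each group has 3 arrays, described in the series' design as independent experiments, whereas the study's methods speak of a pair of replicates. Total RNA was hybridized to 1 Affymetrix human gene array per sample. Values are signals on a log2 scale, so a difference of 1 is a 2-fold change.

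Methylation of histone H3 at lysine 4 (H3K4) marks active promoters and enhancers and is placed by KMT2 and SETD1 enzymes, methylation at H3K36 marks transcribed gene bodies, and methylation at H3K9 and H3K27 marks silent chromatin. EZH1 and EZH2 are alternative catalytic subunits of Polycomb repressive complex 2 (PRC2), which methylates H3K27. The demethylases are flavin enzymes (KDM1A and KDM1B) or Jumonji enzymes, which need oxygen, iron and 2-oxoglutarate. SIN3 itself is a scaffold that brings histone deacetylases, and in some complexes KDM5 demethylases, to promoters, often through MAD family repressors that bind the E-box CACGTG with MAX.

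Because these repressors bind the E-box, promoter windows of 250 bases before to 50 after the gene start were read from RefSeq (GRCh38.p14), which held windows for 51 of the 54 genes. Some genes have several windows, and a gene was counted if any of them held the motif. CACGTG, which reads the same on both strands, was present in 9 of the 51 genes (17.6%), against 8.77% of 27305 genes with a window. The looser CANNTG, which includes it, was present in 34 of the 51 (66.7%), against 73.1% of all genes. The median GC content was 67.7% over the 73 windows of these genes and 58.7% over all 35116 windows. The windows of KDM7A and EZH1 are shown because these genes had the largest increases below, and those of KDM6A and SETD6 because they hold the E-box and their genes moved in opposite directions. Capitals mark CACGTG.
KDM7A, chr7:140176934-140177233, minus strand: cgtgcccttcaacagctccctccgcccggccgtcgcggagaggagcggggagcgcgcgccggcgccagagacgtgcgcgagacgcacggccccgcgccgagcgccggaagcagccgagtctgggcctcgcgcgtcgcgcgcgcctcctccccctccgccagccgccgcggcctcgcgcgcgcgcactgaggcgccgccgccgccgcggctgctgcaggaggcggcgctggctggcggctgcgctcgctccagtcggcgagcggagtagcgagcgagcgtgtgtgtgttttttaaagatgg
EZH1, chr17:42744991-42745290, minus strand: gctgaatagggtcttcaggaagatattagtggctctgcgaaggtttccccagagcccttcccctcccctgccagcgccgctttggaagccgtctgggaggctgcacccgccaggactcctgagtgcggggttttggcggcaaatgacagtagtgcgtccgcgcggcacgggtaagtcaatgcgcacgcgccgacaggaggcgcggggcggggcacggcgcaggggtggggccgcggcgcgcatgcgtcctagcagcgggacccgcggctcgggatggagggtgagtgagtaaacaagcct
KDM6A, chrX:44872938-44873237, plus strand: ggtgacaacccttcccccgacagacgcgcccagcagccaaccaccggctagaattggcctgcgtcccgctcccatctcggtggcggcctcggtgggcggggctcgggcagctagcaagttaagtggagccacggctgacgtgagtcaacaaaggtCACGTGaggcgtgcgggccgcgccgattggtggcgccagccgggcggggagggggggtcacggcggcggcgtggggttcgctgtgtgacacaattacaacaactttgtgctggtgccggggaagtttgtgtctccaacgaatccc
SETD6, chr16:58515267-58515566, plus strand: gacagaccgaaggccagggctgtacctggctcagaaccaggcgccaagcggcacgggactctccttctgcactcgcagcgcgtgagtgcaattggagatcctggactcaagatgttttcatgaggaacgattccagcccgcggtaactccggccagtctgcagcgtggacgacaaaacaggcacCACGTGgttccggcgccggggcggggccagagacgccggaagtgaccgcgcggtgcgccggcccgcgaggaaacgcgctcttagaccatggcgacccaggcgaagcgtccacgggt
The E-box began 95 bases before the start in KDM6A and 66 bases before it in SETD6. The windows of KDM7A and EZH1 held no CACGTG. The other genes with the motif were KMT2D, NSD1, SMYD4, EHMT2, KDM4B, KDM4C and SETDB1. Most windows of NSD1 lacked it.

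The arrays fell into 2 sets before any comparison of peptides. Replicates 1 and 2 of SID and SCR correlated at 0.963 to 0.995 among themselves across probes, replicate 3 of both groups and the UT arrays at 0.992 to 0.997, and arrays of different sets at 0.908 to 0.929. Markers named for the line differed between the sets as well. CD44 stood at 13.17 to 13.25 and AXL at 12.95 to 13.31 in replicates 1 and 2, against 10.68 to 10.84 and 9.95 to 10.14 on the other 5 arrays. Luminal markers went both ways between the sets. EPCAM stood at 9.74 to 10.94 in replicates 1 and 2, against 6.14 to 6.87, and KRT19 at 11.41 to 11.97, against 7.12 to 7.82. KRT8 stood lower there, at 12.75 to 13.57, against 13.68 to 13.98, and FOXA1 at 8.25 to 9.64, against 9.89 to 10.03. The median over 6 mesenchymal markers was 13.1 to 13.23 in replicates 1 and 2 and 10.34 to 10.49 elsewhere. The defining receptors of luminal cells were low throughout, with ESR1 at 6.76 to 7.23 and PGR at 5.61 to 5.75. The leukocyte marker PTPRC lay between 4.84 and 5.07. All arrays carry the same cell line label, and what separates the sets was not tested. A mean over 3 replicates therefore mixes both sets. Each gene is given by array, by the mean over 3 replicates, within replicates 1 and 2 and in replicate 3. In bulk RNA, fewer cells of a type and less RNA per cell cannot be told apart.

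On all 9 arrays, none of the 54 genes passed when SID was set against SCR in limma (adjusted p under 0.05 and a difference above 1 or below -1). The same was true of 0.0% of all 19460 probes, and the lowest adjusted p was 0.657. At an unadjusted p under 0.05, 8 genes were higher and 1 was lower in SID, 9 of 54. Among all probes 881 were higher and 593 lower, 7.57% together. Of the 54, the higher genes were KDM7A, EZH1, KDM6A, KDM3A, KDM5B, PRDM9, KDM1B and KDM4B, and the lower gene was EZH2. KDM6A, KDM1B and KDM4B were named after their values were seen.

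Within replicates 1 and 2, the fit had 5 cells, of which each replicate 3 array was 1, so that the spread came from the other 7 arrays. These 7 include the UT arrays, which belong to the other array set. KDM7A and EZH1 passed the test as higher in SID and EZH2 as lower, 2 of 54 and 1 of 54, against 1.95% of all probes higher and 3.31% lower. By the adjusted p alone, 6 of the 54 genes were higher (11.2% of all probes) and 11 were lower (13.7% of all probes). The same shares of all probes apply to the counts by the adjusted p in each role class and list below. The median difference of the 54 genes was -0.05, against 0.04 for all probes. The 6 higher genes were KDM7A, EZH1, KDM6A, KDM3A, KDM5B and KMT5B. The 11 lower genes were EZH2, KDM4D, SETD9, KDM8, KMT2D, NSD1, SETD6, SUV39H2, SETD7, SMYD4 and KMT5A. Markers of other cell types moved in the same contrast. Of 9 luminal markers 6 were lower in SID by the adjusted p and 0 higher, with a median level of 8.74 and 8.80 in SID replicates 1 and 2, against 10.13 and 10.94 in SCR. CDH1, the adherens junction cadherin of epithelia, stood at 7.05 and 7.26, against 10.13 and 11.08. Of 3 measured basal markers 2 were lower (KRT5 and CDH3) and 0 higher, with medians of 6.99 and 7.29, against 9.28 and 10.18, and of 3 endothelial markers 1 was lower (PECAM1, -1.15). None of 3 measured leukocyte markers passed. The part of these markers in the results on histone enzymes was not tested.

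In replicate 3 no gene of the 54 passed, as for 0.0% of all probes. 3 of 54 had an unadjusted p under 0.05, against 2.67% of all probes, and all 3 were higher in SID: PRDM9 by 0.53, SMYD5 by 0.48 and SUV39H1 by 0.38. Replicate 3 sets a single SID array against a single SCR array, so this p rests on a spread assumed from the other arrays. PRDM9 lay between 5.01 and 5.67 on all arrays, under the log2 signal of 6 used as a filter on low values, and its difference is that of a dim probe. The study's other materials give SCR replicate 3 a longer time, and the part of that in replicate 3 was not tested. Differences were positive in 45 genes and negative in 9 there, from -0.17 to 0.53 with a median of 0.11, against 51.9% of all probes positive. In replicate 1 they were positive in 36 of the 54 genes with a median of 0.08, against 47.4% of all probes with a median of 0.0. In replicate 2 they were positive in 22 of the 54 with a median of -0.24, against 59.4% of all probes with a median of 0.07. Of the 54 genes, 36 had the same sign in replicates 1 and 2 (67.8% of all probes did), and 22 of these 36 (61.1%) had the opposite sign in replicate 3, against 57.8% of all such probes. The 22 were 15 of the 16 genes negative in both replicates and 7 of the 20 positive in both, against 68.0% and 49.7% of all such probes. The gap between the sets was itself tested, as the difference SID minus SCR in replicates 1 and 2 less that in replicate 3. KDM7A passed as higher and KDM4D as lower, 1 of 54 each, against 1.72% and 3.15% of all probes. By the adjusted p alone, 2 genes (KDM7A and KDM5B) were higher and 3 (KDM4D, SETD6 and SETD9) lower, against 2.79% and 4.71% of all probes.

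**Figure D1:**
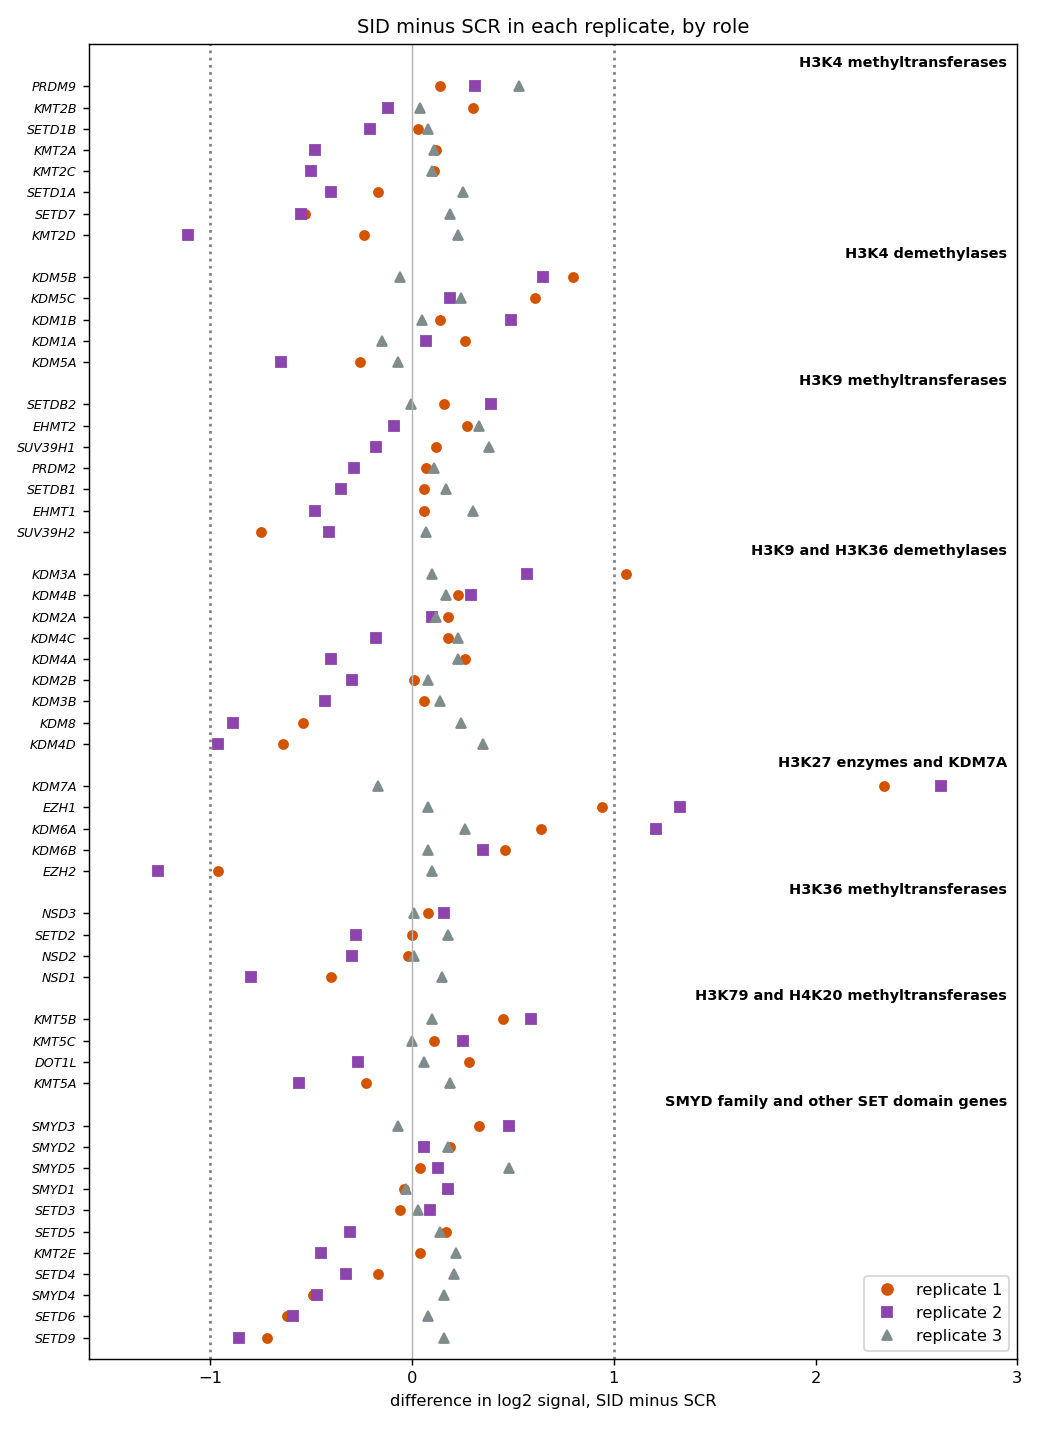
Difference in log2 signal, SID minus SCR, in each replicate (circle, square and triangle for replicates 1, 2 and 3) for 53 genes grouped by role, with dotted lines at the 2-fold limits. For KDM7A the points of replicates 1, 2 and 3 are at 2.34, 2.62 and -0.17, and all replicate 3 points lie between -0.17 and 0.53.

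KDM7A, a Jumonji demethylase of mono- and dimethylated H3K9 and H3K27 with a PHD finger that reads H3K4 methylation, had the largest difference of the 54 genes. Its log2 signal was 9.38, 9.60 and 8.20 in SID replicates 1, 2 and 3, against 7.05, 6.98 and 8.37 in SCR and 9.04, 8.67 and 8.97 in UT. SID replicates 1 and 2 were the highest of all arrays and SCR replicates 1 and 2 the lowest, with replicate 3 of both peptides in between and below UT. The SCR signals of replicates 1 and 2 also lay under the array medians of 7.68 to 7.77, so the fold below rests on a low SCR signal. The difference was 2.48 within replicates 1 and 2 (standard error 0.14, adjusted p = 0.000112 from limma), a 5.57-fold higher signal in SID. In replicate 3 it was -0.17, and the gap between the sets was 2.65 (adjusted p = 0.00365). Over 3 replicates, SID averaged 9.06 ± 0.75 and SCR 7.46 ± 0.79 (SD, n = 3 each), and the difference of 1.59 did not pass (adjusted p = 0.657). Relative to the UT mean of 8.89, SID replicates 1 and 2 lay 0.59 above and SCR replicates 1 and 2 differed by -1.88. In these replicates the SCR arrays thus lay further from UT than the SID arrays did. Since their array set differs from that of UT, peptide and array set cannot be told apart in these contrasts with UT. In replicate 3, SID differed from the UT mean by -0.7 and SCR by -0.53, so SID lay further from UT there.

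EZH1, the PRC2 catalytic subunit found also in non-dividing cells, had a log2 signal of 9.85, 10.37 and 8.92 in SID replicates 1, 2 and 3, against 8.91, 9.04 and 8.84 in SCR and 8.98, 8.89 and 8.97 in UT. Only SID replicates 1 and 2 stood above the other 7 arrays, which all lay within 8.84 to 9.04. The difference within replicates 1 and 2 was 1.14 (standard error 0.16, adjusted p = 0.00237 from limma), 2.2-fold. EZH2, the subunit that rises with proliferation, went the other way, at 10.99, 10.47 and 11.34 in SID, against 11.94, 11.73 and 11.24 in SCR and 11.14, 11.08 and 11.27 in UT. SID replicates 1 and 2 were the lowest of all arrays and SCR replicates 1 and 2 the highest. Its difference was -1.11 (standard error 0.17, adjusted p = 0.00336), 2.16-fold lower in SID. The gap between sets was 1.06 for EZH1 and -1.21 for EZH2 and did not pass as deposited (adjusted p = 0.0618 and 0.051), but its call turned with the processing. EZH1 passed under quantile normalization (1.1, adjusted p = 0.0438) and with low signals filtered out (adjusted p = 0.044). EZH2 passed under median centring (-1.16, adjusted p = 0.0352), with the filter (adjusted p = 0.0345) and with the mean of all probes of each gene (adjusted p = 0.0493). Both passed without SID replicate 1 (1.32 and -1.47, adjusted p = 0.00714 and 0.00898). The differences within replicates 1 and 2 fell under the fold limit without SID replicate 2, at 0.87 for EZH1 and -0.85 for EZH2. The gap between the sets was then 0.80 and -0.95.

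**Figure D2:**
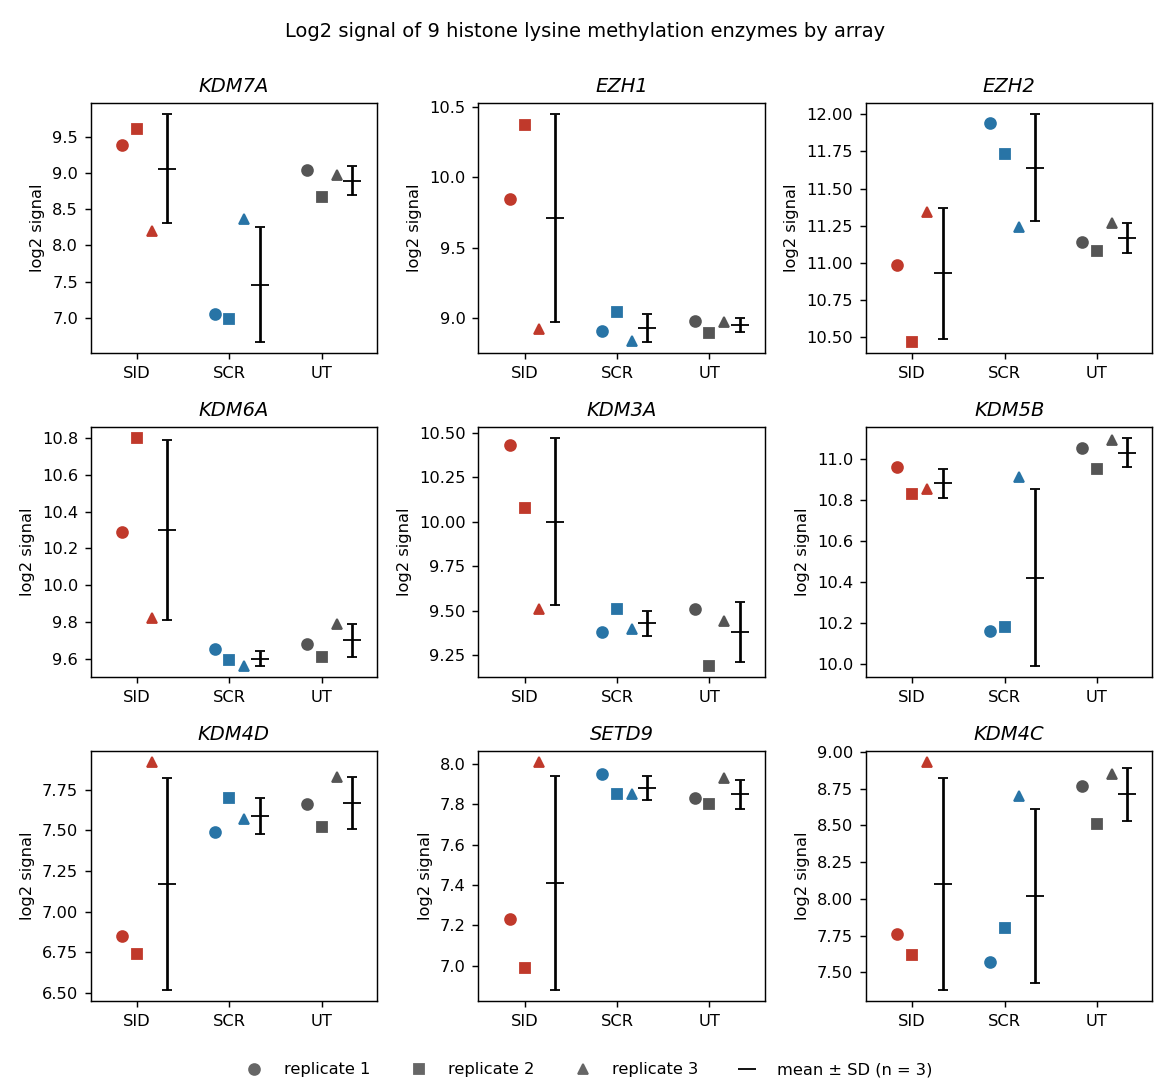
Log2 signal of 9 genes on each array (SID, SCR and UT, with circle, square and triangle for replicates 1, 2 and 3) and the group mean with SD (n = 3). SID replicates 1 and 2 of EZH1, KDM6A and KDM3A lie above all other arrays, SCR replicates 1 and 2 of KDM7A and KDM5B lie below all others, and KDM4C is low in replicates 1 and 2 of both peptides.

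Besides KDM7A, the demethylases that oppose EZH2 were KDM6A (UTX) and KDM6B (JMJD3), which remove di- and trimethylation of H3K27. KDM6A had 10.29, 10.80 and 9.82 in SID, against 9.65, 9.59 and 9.56 in SCR and 9.68, 9.61 and 9.79 in UT. All 3 SID arrays lay above all SCR and UT arrays, replicate 3 by the least. The difference was 0.93 within replicates 1 and 2 (standard error 0.16, adjusted p = 0.00541), under the 2-fold limit, and 0.26 in replicate 3. KDM6B differed by 0.40 (adjusted p = 0.117).

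PRC2 needs further subunits, and these went both ways within replicates 1 and 2. Of 9 listed partners, 2 were higher and 3 lower by the adjusted p, with a median of -0.18. JARID2, which guides PRC2 to its sites, was at 11.65 and 11.69 in SID replicates 1 and 2, against 10.30 and 10.27 in SCR, a difference of 1.39 (adjusted p = 0.000112). PHF1, a Polycomb-like subunit, was at 11.33 and 11.64, against 10.05 and 10.45 (1.24, adjusted p = 0.00144). EED, the core subunit that reads trimethylated H3K27, was at 9.58 and 9.16, against 10.62 and 10.53 (-1.21, adjusted p = 0.00432). SUZ12, another core subunit, differed by -0.34 (adjusted p = 0.059), AEBP2 by -0.44 and PHF19 by -0.51 (adjusted p = 0.0387 and 0.0275). In replicate 3 these differences were 0.12 for JARID2, 0.20 for PHF1 and -0.13 for EED. EED, PHF1, SUZ12, AEBP2 and PHF19 were named after their values were seen.

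EZH2 is known as a gene of dividing cells, and the cell cycle markers moved beside it. Of 16 such markers, 12 were lower and 0 higher in SID within replicates 1 and 2 by the adjusted p, 6 with a fold above 2, and their median difference was -0.66. Their median level was 11.77 and 11.11 in SID replicates 1 and 2, against 11.96 and 11.91 in SCR. CCNE2, a cyclin of the entry into S phase, had the largest difference, at 9.45 and 8.26 in SID, against 11.77 and 11.35 in SCR (-2.71, adjusted p = 0.00156). In replicate 3 the median difference was 0.08. The part of these genes in the EZH2 result was not tested.

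Among the 9 measured H3K9 and H3K36 demethylases, 1 was higher, 2 were lower and 6 did not pass by the adjusted p within replicates 1 and 2. KDM3A (JMJD1A), a demethylase of mono- and dimethylated H3K9 and a known target of hypoxia-inducible factor, had 10.43, 10.08 and 9.51 in SID, against 9.38, 9.51 and 9.40 in SCR and 9.51, 9.19 and 9.44 in UT. SID replicates 1 and 2 stood above all other arrays, and SID replicate 3 equalled the highest of them. The difference was 0.81 within replicates 1 and 2 (standard error 0.15, adjusted p = 0.00728) and 0.10 in replicate 3. Hypoxia markers moved beside it. Of 10 measured, 7 were higher and 0 lower by the adjusted p, 3 of them with a fold above 2, with a median of 0.63 (0.08 in replicate 3). NDRG1, which marks hypoxic stress, had the largest difference, at 13.36 and 13.26 in SID replicates 1 and 2, against 11.32 and 11.83 in SCR (1.73, adjusted p = 0.000449). The part of hypoxia genes in the KDM3A result was not tested.

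KDM4D, a demethylase of H3K9 that lacks the reader domains of KDM4A to KDM4C, was lower in SID within replicates 1 and 2. It stood at 6.85, 6.74 and 7.92 in SID, against 7.49, 7.70 and 7.57 in SCR and 7.66, 7.52 and 7.83 in UT. SID replicates 1 and 2 were the lowest of all arrays and SID replicate 3 the highest. The difference was -0.80 within replicates 1 and 2 (standard error 0.13, adjusted p = 0.00377) and 0.35 in replicate 3, and the gap between sets of -1.14 passed (adjusted p = 0.0248). That gap no longer passed without SID replicate 2 (-1.09, adjusted p = 0.0573) or without SCR replicate 2 (-1.04, adjusted p = 0.0648). KDM8, a Jumonji protein of the same class named after its values were seen, differed by -0.71 (adjusted p = 0.0122), and its second probe by -0.09 (adjusted p = 0.771).

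KDM4C, which acts on H3K9 and H3K36, was split by the array sets. It had 7.76, 7.62 and 8.93 in SID, against 7.57, 7.80 and 8.70 in SCR and 8.77, 8.51 and 8.85 in UT. Replicates 1 and 2 of both peptides lay about equally low, each differing from the UT mean by -1.02, while replicate 3 lay with UT. Its difference between peptides was -0.00068 within replicates 1 and 2 (standard error 0.14). KDM4C was named after its values were seen. The closely related KDM4A and KDM4B differed by -0.07 and 0.26 (adjusted p = 0.812 and 0.0873).

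The H3K4 demethylases include the KDM5 enzymes, which travel with SIN3 complexes. Of 6, 1 was higher by the adjusted p within replicates 1 and 2 and 5 did not pass, and none was lower. Among all probes 11.2% were higher and 13.7% lower. KDM5B (JARID1B), which removes di- and trimethylation of H3K4, was at 10.96, 10.83 and 10.85 in SID, against 10.16, 10.18 and 10.91 in SCR and 11.05, 10.95 and 11.09 in UT. Here the 3 SID arrays lay close together, and only SCR replicates 1 and 2 stood below the rest. The difference was 0.72 within replicates 1 and 2 (standard error 0.09, adjusted p = 0.00158), -0.06 in replicate 3, and the gap between sets was 0.78 (adjusted p = 0.029). KDM5A differed by -0.45 (adjusted p = 0.14) and KDM5C by 0.40 (adjusted p = 0.12). KDM1A (LSD1), the flavin demethylase of H3K4, differed by 0.16 with a standard error of 0.12 (adjusted p = 0.407).

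The opposing H3K4 methyltransferases numbered 8, of which 2 were lower and 6 did not pass, with a median of -0.19. Of all probes 13.7% were lower, and counts this small give no direction to a class. KMT2D (MLL4), which places H3K4 monomethylation at enhancers, had 9.32, 9.01 and 10.59 in SID, against 9.57, 10.12 and 10.37 in SCR and 10.35, 10.12 and 10.41 in UT. Its SID and SCR arrays of replicates 1 and 2 did not overlap, but SCR replicate 1 lay nearer to SID replicate 1 than to SCR replicate 2. The difference was -0.68 (standard error 0.20, adjusted p = 0.0409). SETD7, named after its values were seen, differed by -0.54 (adjusted p = 0.012). KMT2A (MLL1), the founding member of the family, had 11.19, 10.86 and 10.47 in SID, against 11.07, 11.35 and 10.36 in SCR and 10.33, 10.16 and 10.37 in UT. It was higher in replicates 1 and 2 of both peptides than on the other arrays, by 0.74 in SID and 0.92 in SCR relative to UT. Between peptides its 2 probes gave -0.18 and 0.24 within replicates 1 and 2 (adjusted p = 0.446 and 0.155), so that its direction depended on the probe.

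The KMT2A to KMT2D and SETD1 enzymes of this class work in COMPASS complexes with shared subunits. Of 12 COMPASS subunits, 1 was higher and 3 lower by the adjusted p within replicates 1 and 2, with a median of -0.21. DPY30, a shared core subunit, had the largest difference, at 12.31 and 12.49 in SID, against 11.63 and 11.71 in SCR (0.73, adjusted p = 0.00162). PAGR1, which is particular to the KMT2C and KMT2D complexes, stood at 8.93 and 8.84, against 9.52 and 9.70 (-0.72, adjusted p = 0.00212), WDR5 differed by -0.53 and PAXIP1 by -0.44 (adjusted p = 0.0129 and 0.0185). These last 3 were named after their values were seen. In replicate 3 DPY30 differed by 0.14 and PAGR1 by -0.05.

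Of the 7 H3K9 methyltransferases, SUV39H2 alone passed by the adjusted p. SUV39H2, which trimethylates H3K9 in heterochromatin, had 9.89, 9.90 and 10.40 in SID, against 10.64, 10.30 and 10.34 in SCR and 10.20, 10.01 and 10.15 in UT. SID replicates 1 and 2 lay below all other arrays, while SCR replicate 1 lay above them. The difference was -0.58 (standard error 0.13, adjusted p = 0.0132), against 0.07 in replicate 3. SETDB1, which silences retroelements with KAP1, lay below UT in replicates 1 and 2 of both peptides, with differences of -0.74 in SID and -0.60 in SCR, and differed by -0.14 between peptides (adjusted p = 0.579). SETDB2 differed by 0.28 (adjusted p = 0.157). Among 8 measured chromodomain proteins, which read these marks, 2 were higher and 2 lower by the adjusted p. CBX5 (HP1α), a reader of methylated H3K9, was at 11.63 and 11.02 in SID replicates 1 and 2, against 12.67 and 12.68 in SCR (-1.35, adjusted p = 0.00171), and differed by 0.11 in replicate 3. CBX7, a Polycomb reader named after its values were seen, differed by 0.85 (adjusted p = 0.00684).

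For H3K36, 1 of 4 methyltransferases was lower and 3 did not pass. NSD1, which dimethylates H3K36, had 9.31, 9.02 and 10.59 in SID, against 9.71, 9.82 and 10.44 in SCR and 10.30, 10.09 and 10.39 in UT. Replicates 1 and 2 of both peptides lay below all other arrays, SID further than SCR. The difference was -0.60 (standard error 0.14, adjusted p = 0.0159). NSD2, a close relative, lay instead above UT in replicates 1 and 2, by 0.61 in SID and 0.77 in SCR, and differed by -0.16 between peptides (adjusted p = 0.361). SETD2, the trimethylase of H3K36, differed by -0.14 (adjusted p = 0.493).

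Of 4 methyltransferases of H3K79 and H4K20, 1 was higher and 1 lower. KMT5B (SUV420H1), which places di- and trimethylation of H4K20, had 10.03, 10.07 and 10.13 in SID, against 9.58, 9.48 and 10.03 in SCR and 10.18, 9.78 and 10.25 in UT. As with KDM5B, only SCR replicates 1 and 2 stood low (0.52, standard error 0.15, adjusted p = 0.0444). KMT5A (SET8), the monomethylase of H4K20 that acts in the cell cycle, differed by -0.40 on its main probe and by -0.36 and 0.02 on the other 2 (adjusted p = 0.0231, 0.0356 and 0.959). DOT1L, the methylase of H3K79, differed by 0.0059 (standard error 0.14).

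The SMYD and other SET domain genes numbered 11, of which 3 were lower and 8 did not pass. SETD6, which methylates the NF-κB subunit RELA, had 8.38, 8.42 and 10.11 in SID, against 9.01, 9.0 and 10.03 in SCR and 9.82, 9.73 and 9.89 in UT. Replicates 1 and 2 of both peptides lay below every other array, and SID lay below SCR within them. The difference was -0.60 (standard error 0.09, adjusted p = 0.00256) and 0.08 in replicate 3, with a gap between sets of -0.69 (adjusted p = 0.0364). SETD9, whose role is little known, had 7.23, 6.99 and 8.01 in SID, against 7.95, 7.85 and 7.85 in SCR and 7.83, 7.80 and 7.93 in UT. Only SID replicates 1 and 2 were low (-0.79, standard error 0.11, adjusted p = 0.00199), and the gap between sets was -0.95 (adjusted p = 0.026). SMYD4, named after its values were seen, differed by -0.48 (adjusted p = 0.0109).

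Read back against the promoter windows, 1 of the 9 genes with CACGTG (KDM6A) was higher and 4 (KMT2D, NSD1, SETD6 and SMYD4) were lower in SID by the adjusted p within replicates 1 and 2, with a median of -0.14. Of the 42 genes with a window but without the motif, 5 were higher and 7 lower, with a median of -0.05. Among all probes 11.2% were higher and 13.7% lower. These counts describe the windows and were not tested.

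Against untreated cells, none of the 54 genes passed on all 9 arrays for SID or for SCR, and 0.0% of all probes did in either contrast. The 2 contrasts share the UT arrays. At an unadjusted p under 0.05, 6 of 54 genes were higher in SID than in UT and 0 lower. These 6 were EZH1, KDM2A, KDM3A, KDM4B, KDM6A and SMYD2. Among all 19460 probes 1224 were higher and 1208 lower, 12.5% together. For SCR against UT, 7 of 54 had an unadjusted p under 0.05. Of these, 3 were higher (KDM2A, KMT2A and SMYD2) and 4 lower (KDM7A, KDM5B, KMT5C and SETDB2). Among all probes 1296 were higher and 1515 lower, 14.4% together. SMYD2, a methylase of H3K36 and p53, lay 0.79 above UT in SID and 0.67 above it in SCR in replicates 1 and 2. KDM2A, a demethylase of H3K36 bound to CpG islands, differed from UT by 0.59 over all SID arrays and by 0.45 over all SCR arrays. The named genes outside the rule here (KDM2A, KDM4B, KMT5C and SMYD2) were chosen after their values were seen. By the levels in replicates 1 and 2, EZH1, KDM6A and KDM3A lay above UT in SID (1.16, 0.85 and 0.88) and near it in SCR (0.03, -0.08 and 0.07). KDM4D and SETD9 lay below UT in SID (-0.87 and -0.75) and near it in SCR (-0.07 and 0.05). KDM5B and KMT5B lay near UT in SID (-0.14 and -0.02) and below it in SCR (-0.86 and -0.54). These levels are given without a test, since peptide and array set cannot be told apart in them.

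**Figure D3:**
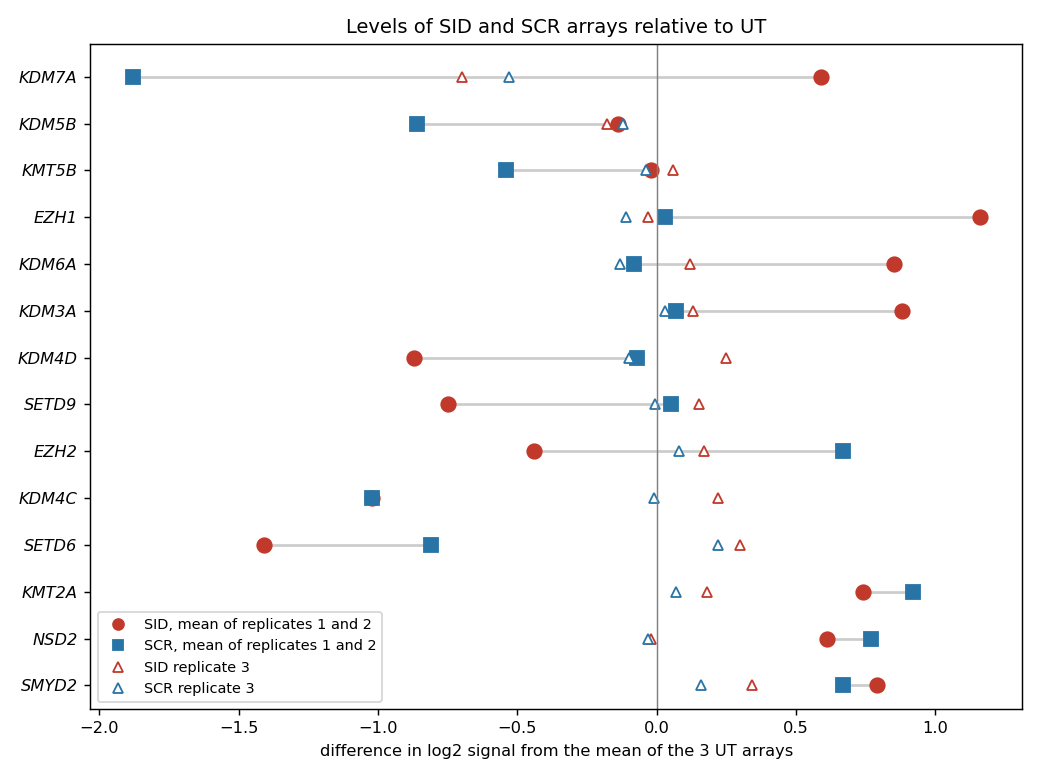
Log2 signal of 14 genes relative to the mean of the 3 UT arrays, for the mean of replicates 1 and 2 of SID (red circles) and SCR (blue squares) and for replicate 3 of each (open triangles). KDM7A spans 0.59 in SID to -1.88 in SCR, EZH1 is 1.16 above UT in SID and 0.03 above it in SCR, and KDM4C lies at -1.02 in both.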

How the data were processed

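RNA of 3 SID, 3 SCR and 3 UT samples was measured on 1 array each, with groups taken from the sample labels. The deposited values are log2 signals per transcript cluster, which the authors normalized with Affymetrix Expression Console and RMA (Transcriptome Analysis Console is also named in the labels, without versions or settings). The scale was read from the values, 3.75 to 14.94 with array medians of 7.68 to 7.77. Columns of another series were absent. The study analysed single probes with another program, which cannot be repeated from these values.

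Of 33297 probes, 19460 with a single gene symbol were tested, 1754 have several symbols and 12083 none, and 19429 matched RefSeq by Entrez ID. KDM4E and KDM4F have no such probe. Linear models were fitted in limma 3.58.1 (lmFit, eBayes, under R 4.3.3), with Benjamini-Hochberg adjustment over all 19460 probes. The fit over 9 arrays had 3 groups. The fit within replicates 1 and 2 had 5 cells (SID and SCR replicates 1 and 2, each replicate 3 array, and UT), where a lone array is assumed to vary like the others. Probes were called at an adjusted p below 0.05 with a difference over 1 in size. The procedure was tested on simulated data with known changes. Those data held no shift shared by SID and SCR between the array sets, so they cannot show how the fits behave with such a shift. Deviations of SID and SCR arrays of the same number from their group means correlated at 0.774, 0.575 and 0.791. The array sets split the replicates of both groups alike. These correlations therefore cannot show whether replicates 1 and 2 pair by number. The number of arrays limits the precision.

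The genes named are KDM7A, the called genes, in each role class the 2 with the largest mean difference between SID and SCR, and 8 enzymes named whatever their values, and of each other list the largest difference. The genes, lists, rules and alternatives were chosen with earlier results of these data known. The alternatives were a replicate block, array weights, quantile normalization, median centring, a signal filter, the methods' t-test, no fold limit, the array set as a term, the mean of all probes and leaving out each array. Figures were drawn with matplotlib 3.10.9.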

Additional observations from a re-analysis of the deposited data

Results flagged for a closer look

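For 2 genes, SID minus SCR differed between replicates 1 and 2 and replicate 3 by a test of that difference in limma (adjusted p under 0.05 and a difference above 1 or below -1). KDM7A differed by 2.65 between the sets (adjusted p = 0.00365). KDM4D differed by -1.14 (adjusted p = 0.0248), and this call was lost without SID replicate 2 (-1.09) and without SCR replicate 2 (-1.04). Each replicate 3 group is 1 array, so its own spread is assumed from the others. Replicates 1 and 2 differ from replicate 3 in their array set, and the study's other materials give SCR replicate 3 a longer time. The part of the array set or of the time in these differences was not tested.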

How the results depend on the processing

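With the replicate block, 0 genes of the 54 were called on all arrays (KDM7A 1.59, adjusted p = 0.526, between SID and SCR), and within replicates 1 and 2 the same number, 3, were called as without it. The block changed no call. Within replicates 1 and 2 it was fitted to those arrays alone, and KDM7A then had an adjusted p of 0.00263 from limma. Calls within replicates 1 and 2 numbered 3 under quantile normalization, median centring, the filter and the mean of all probes, and 17 of the 54 and 4840 probes by the adjusted p alone. Leaving out an array gave 1 to 4 of the 54, with 1 without SID replicate 2. The gap between the sets, whose alternatives were chosen after seeing the data, gave 4 of the 54 with the filter, 5 of the 54 and 1460 probes by the adjusted p alone, and 1 to 6 of the 54 and 600 to 1545 probes with an array left out, at the top without SID replicate 1 and at the bottom without SCR replicate 2 (for the 54, also without SID replicate 2).

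On all 9 arrays, array weights gave 761 probes and 1 of the 54 for SID against SCR (KDM7A 2.29), 2389 and 4 for SID against UT and 2116 and 2 for SCR against UT, with a median of -0.15 over the 54 in the last contrast. These weights, whose fit stopped short of convergence, were 0.137 and 0.176 for the replicate 3 arrays of SID and SCR and 0.7 to 6.92 for the others. The array set as a term gave 1 probe for SID against UT and a median of 0.09 for SCR against UT. Leaving out an array gave 0 to 648 probes and 0 to 2 of the 54 for SID against SCR, 0 to 1946 and 0 to 4 for SID against UT and 0 to 1071 and 0 to 1 for SCR against UT. The highest of these came without SID replicate 3 in the first 2 contrasts and without SCR replicate 3 in the last, and without SCR replicate 3 SID against SCR gave 223 probes. Leaving out any SID or SCR array gives these groups unequal numbers from the array sets. Without replicate 1 or 2 of SID or SCR, SID against SCR gave 0 probes. The part of the array sets in these counts was not tested. The methods' t-test called 0 probes in each contrast after Benjamini-Hochberg adjustment, and 1, 3 and 4 of the 54 genes had an unadjusted p under 0.05 for SID against SCR, SID against UT and SCR against UT.

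Directions that turned were all of uncalled differences. Between SID and SCR, KMT2A turned to 0.02 with array weights, to 0.02 on all arrays and 0.03 within replicates 1 and 2 with all its probes, to 0.10 without SID replicate 3 and to 0.13 without SCR replicate 2, and with an array left out it lay between -0.37 and 0.13. SETDB1 turned to 0.11, 0.12 and 0.16 without SID replicate 1, SID replicate 2 and SCR replicate 3 (range -0.34 to 0.16), and within replicates 1 and 2 to 0.05 without SCR replicate 2 (range -0.33 to 0.05). SETD2 turned to 0.10 on all arrays (range -0.15 to 0.10) and to 0.02 within replicates 1 and 2 (range -0.30 to 0.02) without SID replicate 2. KDM1A turned to -0.002 without SID replicate 3 and to -0.09 without SCR replicate 1 (range -0.09 to 0.22). NSD2 turned to 0.11, 0.0052 and 0.06 without SID replicate 3, SCR replicate 1 and SCR replicate 2 (range -0.37 to 0.11). Against UT with the array set as a term, KDM4C turned to 0.14 and KDM5B to 0.08 in SID and KDM4C to 0.06 in SCR. KDM7A in SID turned to -0.11 without SID replicate 2 (range -0.11 to 0.59), and EZH1 in SCR to 0.03 without SCR replicate 3 and 0.0023 without UT replicate 1 (range -0.07 to 0.03). The cause was not tested.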

Other observations

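A list of 11 measured relatives with Jumonji or SET domains, not picked by the families above, held 0 genes higher and 3 lower in SID by the adjusted p within replicates 1 and 2. SETMAR, a SET domain protein fused to a transposase, had the largest difference, at 7.70 and 7.47 in SID, against 8.30 and 8.36 in SCR (-0.75, adjusted p = 0.00255 from limma), and differed by 0.26 in replicate 3. PHF8 and PHF2, the relatives of KDM7A, differed by 0.25 and 0.40 (adjusted p = 0.3 and 0.0517), both named after their values were seen.

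Targets of ATF4, the transcription factor of amino acid stress, moved both ways within replicates 1 and 2, with 2 of 10 higher and 3 lower by the adjusted p. PHGDH, the first enzyme of serine synthesis, had the largest difference. It stood at 7.98, 7.94 and 12.89 in SID, against 10.07, 10.37 and 12.55 in SCR and 12.86, 13.19 and 13.03 in UT. Replicates 1 and 2 of both peptides lay below all other arrays, SID below SCR (-2.27, adjusted p = 0.000133).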
